A study of Mus musculus with 239 samples.

Results

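Notch signalling genes were followed across single mouse mammary epithelial cells: the ligand genes Dll1, Jag1 and Jag2, the receptor genes Notch1, Notch2, Notch3 and Notch4, and the target genes Hes1 and Hey1. These 9 genes were taken by name from a deposited table of 18850 genes in 239 cells, with no threshold on their values. The study asked how varied mouse mammary epithelial cells are in pregnant and in virgin females. Cells came from FVB females of 3 to 4 months, either pregnant (day 12 in the labels, 12.5 in the protocol) or virgin, and all groups share this strain. Haematopoietic and endothelial cells were depleted, and viable cells were then sorted by 2 surface antigens. The basal gate took cells of intermediate CD24 and high CD29, and the luminal gate those of high CD24 and low CD29. Single cells were captured on Fluidigm C1 microfluidic chips. Of the 239 cells, 136 came from the basal gate, 34 of them virgin basal and all others pregnant basal, and 103 from the luminal gate, 49 of them pregnant luminal and 54 virgin luminal.

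Notch signalling passes between touching cells. A ligand on the surface of one cell binds a receptor on its neighbour, the receptor is cut by ADAM proteases and then by gamma-secretase, and the freed intracellular part enters the nucleus, where it joins the DNA-binding protein RBPJ and Mastermind proteins to switch on targets such as the Hes and Hey repressor genes. In the mammary gland, active Notch signalling is known for favouring the luminal fate, and the outer basal layer, which holds the contractile myoepithelial cells, lies against the inner luminal layer.

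Values are FPKM, fragment numbers adjusted for transcript length and for depth, so levels may be compared between genes. The labels name no mouse, chip or day for any cell, so each group is 1 sample without replicates. No difference was tested, every SD is a spread over cells, and exact Clopper-Pearson 95% intervals on shares of cells cover counting error only. A cell is counted as having a gene at 1 FPKM or more, and a difference compares the group averages of log2(FPKM + 1), which understates the fold of low genes. Where 0 cells had a gene, the limit given is 3 cells of the group.

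Depth differed between the groups and touches every low value. The steps between low FPKM values put the median cell at 9.12 M fragments (M for mega) in pregnant basal, 8.86 M in pregnant luminal, 6.19 M in virgin basal cells and 8.55 M in the virgin luminal group. Single cells ran from 1.15 to 39.9 M. The median cell had 3653 genes at 1 FPKM or more in the pregnant luminal group, 1825 in virgin basal cells and 3773 in virgin luminal cells, and pregnant basal cells lay between these. The gates matched their markers in most cells. Acta2, smooth muscle actin of myoepithelial cells, was found in every pregnant basal cell, 10 of 49 pregnant luminal, 28 of 34 virgin basal cells and 3 of 54 virgin luminal cells. Krt18, a luminal keratin, was found in every luminal-gate cell, and also in 42 pregnant basal and 13 virgin basal cells. Despite the depletion, 5 pregnant basal, 1 pregnant luminal and 8 virgin basal cells carried endothelial markers (Cdh5, or at least 3 of 11 listed genes, at 1 FPKM or more).

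Dll1 and Jag1 were the ligand genes higher by at least 1 on the log2 scale in the basal gate, in both pregnant and virgin glands. The 250 bases of GRCm38 before a RefSeq start of each are shown for that reason. Dll1 lies on the minus strand of chromosome 17 (15367354 to 15376872, GENCODE) and has 2 start sites in RefSeq, of which the upstream one is shown (chr17:15376933-15377182, minus strand). Jag1 lies on the minus strand of chromosome 2 (137081456 to 137116644; window chr2:137116521-137116770, minus strand). Capitals mark the E-box letters CAGGTG.
Dll1: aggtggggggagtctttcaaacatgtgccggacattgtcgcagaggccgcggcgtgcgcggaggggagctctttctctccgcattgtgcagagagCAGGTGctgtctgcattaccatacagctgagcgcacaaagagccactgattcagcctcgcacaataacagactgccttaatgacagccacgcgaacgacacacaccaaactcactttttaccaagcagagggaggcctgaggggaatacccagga
Jag1: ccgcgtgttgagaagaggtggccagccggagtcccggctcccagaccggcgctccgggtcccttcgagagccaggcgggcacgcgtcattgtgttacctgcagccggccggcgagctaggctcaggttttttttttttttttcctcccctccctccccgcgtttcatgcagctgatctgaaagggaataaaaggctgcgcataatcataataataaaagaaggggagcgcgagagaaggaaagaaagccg

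RefSeq windows were matched for 7 of the 9 genes, in 8 windows, and those of Hes1 and Hey1 were not analysed here. On both strands, the E-box letters CAGGTG were in 1 of the 8 windows, 155 bases before the upstream Dll1 start, and in 17.2% of all 32851 windows of the same length. This E-box was chosen after the windows had been read. The RBPJ core letters TGGGAA were in 0 of the 8 windows and in 21.6% of all windows. The p63 motif, a pair of CATG with 6 bases of any kind between them, was in 0 of the 8 windows and in 0.490% of all. A match describes letters in these windows and nothing more.

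Dll1, a Delta-like ligand known to be expressed by mammary stem cells and other basal cells, was found in the basal gate alone at 1 FPKM. Dll1 ranged over 0, 0.793 and 134 FPKM (lowest, median, highest) in pregnant basal cells and over 0, 0 and 713 FPKM in virgin basal cells, whereas its highest value was 0.0342 FPKM in pregnant luminal cells and 0.0102 FPKM in virgin luminal cells. It was found in 50 pregnant basal cells (49%, interval 39 to 59.1%) and 8 of 34 virgin basal cells (23.5%, 10.7 to 41.2%). It was found in 0 of 49 pregnant luminal cells, which allows up to 6.12%, and in 0 of 54 virgin luminal cells, which allows up to 5.56%. The basal and luminal ranges thus overlapped only at values near 0.

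Within the basal gate, the order of Dll1 depended on the measure. Its mean was 11.4 FPKM in pregnant basal and 24.3 FPKM in virgin basal cells, but 1 virgin basal cell held 86.4% of the virgin basal sum, and without it the virgin basal mean was 3.41 FPKM. On the log2 scale the mean was 1.78 ± 2.11 (SD) in pregnant basal and 1.12 ± 2.13 in virgin basal cells, a difference of 0.66 that lies within the spread over cells.

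Jag1, a Jagged ligand, had the highest level of the 9 genes in both basal groups. Jag1 ranged over 0.0191, 63.3 and 654 FPKM in pregnant basal cells, 0, 0.0488 and 376 FPKM in pregnant luminal cells, 0, 12.6 and 680 FPKM in virgin basal cells and 0, 6.84 and 213 FPKM in virgin luminal cells. Pregnant basal cells were high almost throughout, while each other group held many cells near 0 beside cells at high levels, so the ranges of all groups overlapped. Jag1 was found in 97 pregnant basal cells (95.1%, 88.9 to 98.4%), 17 of 49 pregnant luminal cells (34.7%, 21.7 to 49.6%), 23 of 34 virgin basal cells (67.6%, 49.5 to 82.6%) and 32 of 54 virgin luminal cells (59.3%, 45 to 72.4%). The mean on the log2 scale ran from pregnant basal (5.58 ± 1.93) through virgin basal (3.68 ± 2.95) and virgin luminal (2.55 ± 2.31) to pregnant luminal cells (1.24 ± 1.95), and each neighbouring pair in that order differed by no more than the SD over cells. The highest pregnant luminal cell held 63.9% of that group's sum, and the group mean was 12.0 FPKM with it and 4.43 FPKM without it.

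Jag2, the other Jagged ligand (chromosome 12, 112907819 to 112929776), was sparse. It was found in 20 pregnant basal cells (19.6%, 12.4 to 28.6%), reaching 42.9 FPKM, against 1 of 49 pregnant luminal cells (8.82 FPKM), 1 of 34 virgin basal cells (2.95 FPKM) and 0 of 54 virgin luminal cells. The interval for virgin basal cells, 0.0744 to 15.3%, overlapped that of pregnant basal cells.

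**Figure D1:**
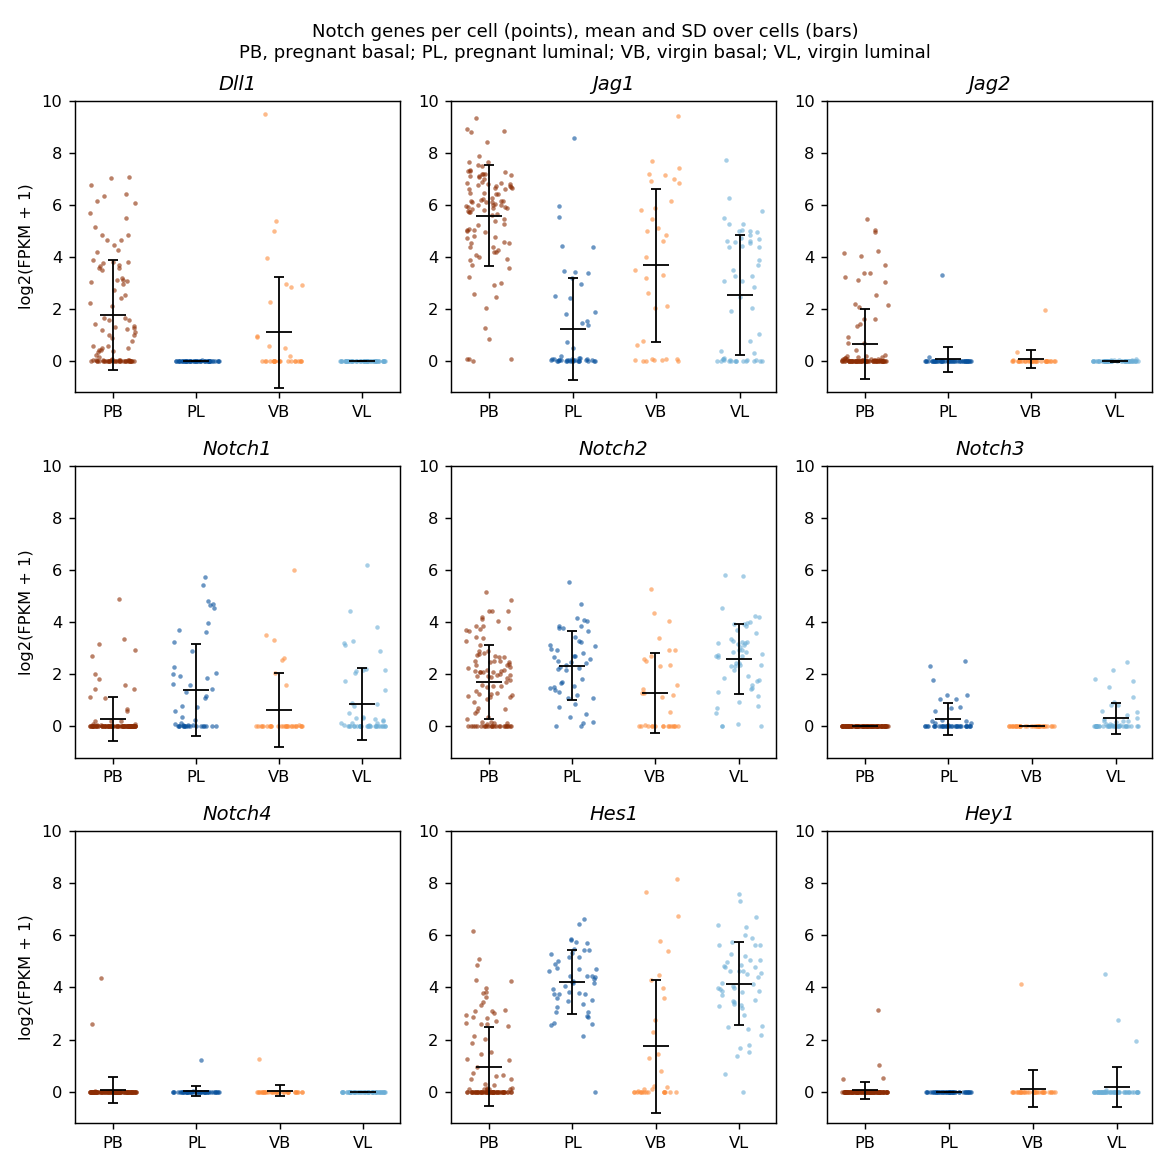
Each panel plots 1 gene, with log2(FPKM + 1) on the vertical axis; points are cells, and bars are the mean and SD over cells of the pregnant basal (PB), pregnant luminal (PL), virgin basal (VB) and virgin luminal (VL) groups. Dll1 lies at or near 0 in every luminal cell, Notch3 at 0 in every basal cell, and Hes1 is above 1 FPKM in 48 of 49 pregnant luminal and 52 of 54 virgin luminal cells.

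Notch1, Notch2 and Notch3 had lower mean levels in the basal than in the luminal gate, in pregnant and in virgin glands. Measured genes in general leaned the same way, with a median difference of −0.33 in pregnant and −0.59 in virgin glands. Notch3 in pregnant glands (−0.29), and Notch1 (−0.22) and Notch3 (−0.31) in virgin glands, were no lower than these medians. Notch2 (chromosome 3, 98013527 to 98150361) was the receptor gene found in most cells. It ranged over 0, 2.56 and 35.1 FPKM in pregnant basal cells, 0.0116, 4.36 and 46.1 FPKM in pregnant luminal cells, 0, 0.827 and 38 FPKM in virgin basal cells and 0, 5.60 and 54.6 FPKM in virgin luminal cells. All groups overlapped over nearly the whole range. Notch2 was found in 64.7% of pregnant basal (54.6 to 73.9%), 83.7% of pregnant luminal (70.3 to 92.7%), 50% of the virgin basal cells (32.4 to 67.6%) and 85.2% of the virgin luminal cells (72.9 to 93.4%).

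Notch1 (chromosome 2, 26457903 to 26516663), a receptor known in luminal progenitors and in endothelium, had its highest mean in pregnant luminal cells, 5.61 FPKM. It ranged over 0, 0 and 28.6 FPKM in pregnant basal cells, 0, 0.497 and 52.1 FPKM in pregnant luminal cells, 0, 0 and 62.8 FPKM in virgin basal cells and 0, 0.0718 and 72.7 FPKM in virgin luminal cells. Single cells reached high values in every group, and the median was below 1 FPKM in all 4 groups. Notch1 was found in 12 pregnant basal cells (11.8%, 6.23 to 19.6%), 22 of 49 pregnant luminal cells (44.9%, 30.7 to 59.8%), 7 of 34 virgin basal cells (20.6%, 8.70 to 37.9%) and 14 of 54 virgin luminal cells (25.9%, 15 to 39.7%). The mean of virgin basal cells was 2.88 FPKM, and 1.06 FPKM without its highest cell, and that of virgin luminal cells was 3.02 FPKM, and 1.71 FPKM without its highest cell.

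Notch3 (chromosome 17, 32120820 to 32166852), a receptor known in luminal progenitors and in pericytes, was listed at 0 FPKM in every pregnant basal and every virgin basal cell. It reached 4.67 FPKM in pregnant luminal cells and 4.60 FPKM in virgin luminal cells. It was found in 7 of 49 pregnant luminal cells (14.3%, 5.94 to 27.2%) and 6 of 54 virgin luminal cells (11.1%, 4.19 to 22.6%), and these intervals overlapped. Finding it in 0 cells leaves room for up to 2.94% of pregnant basal and 8.82% of virgin basal cells. In the median of all 239 cells, at 8.74 M fragments, 1 FPKM of Notch3 stands for 69.4 fragments. The virgin basal median was lower, at 6.19 M. These values describe sequencing depth alone, and whether a value of 0 means absence was not tested. Pericytes are known to use Notch3. Of the pericyte list of 6 genes, 4 reached 1 FPKM in a pregnant basal cell and 4 in a virgin basal cell. Summed over the list, the median was 0.579 FPKM in pregnant basal cells, and the highest cell had 695 FPKM. Kcnj8 was listed at 0 in every cell of all groups. Rgs5 was found in 32 pregnant basal cells, where Notch3 was listed at 0. The pericyte content of the groups was not tested.

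Notch4 (chromosome 17, 34564268 to 34588503), a receptor known in endothelium, was found in 4 of the 239 cells. These were 2 pregnant basal cells (19.5 and 5.12 FPKM), 1 pregnant luminal cell (1.34 FPKM) and 1 virgin basal cell (1.40 FPKM), and it was at 0 in all virgin luminal cells. Leaving out the cells with endothelial markers left 1 of 97 pregnant basal, 0 of 48 pregnant luminal and 0 of 26 virgin basal cells with Notch4.

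Hes1 (chromosome 16, 30064384 to 30067796), which encodes a repressor of the Hairy and Enhancer of split family, was found in nearly all luminal cells. It ranged over 0, 0 and 71 FPKM in pregnant basal cells, 0, 18 and 97.2 FPKM in pregnant luminal cells, 0, 0.0707 and 283 FPKM in virgin basal cells and 0, 16.9 and 190 FPKM in virgin luminal cells. The luminal medians lay far above both basal medians, although single basal cells reached or passed the luminal range. Hes1 was found in 30 pregnant basal cells (29.4%, 20.8 to 39.3%), 48 of 49 pregnant luminal cells (98%, 89.1 to 99.9%), 13 of 34 virgin basal cells (38.2%, 22.2 to 56.4%) and 52 of 54 virgin luminal cells (96.3%, 87.3 to 99.5%). The mean on the log2 scale was 0.95 ± 1.51 in pregnant basal, 4.22 ± 1.22 in pregnant luminal, 1.74 ± 2.55 in virgin basal cells and 4.14 ± 1.60 in the virgin luminal group.

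In virgin basal cells Hes1 rested on few cells. The 3 highest held 77.3% of the sum, and the mean of 22.6 FPKM was 14.7 FPKM without the highest. The 13 basal-gate cells with endothelial markers had a mean Hes1 of 44.7 FPKM, with 7 of the 13 at 1 FPKM or more, and Notch1 was found in 6 of them. Without such cells Hes1 was found in 28 of 97 pregnant basal cells and 8 of 26 virgin basal cells, and Notch1 in 10 of 97 pregnant basal and 3 of 26 virgin basal cells. Summed over the endothelial list, levels ran from 0 to 2222 FPKM in pregnant basal, 0 to 247 FPKM in pregnant luminal, 0 to 6710 FPKM in virgin basal cells and 0 to 27 FPKM in virgin luminal cells, where Cdh5, Kdr, Tek, Tie1, Esam and Cldn5 were at 0. Between basal and luminal cells the Hes1 difference was at least as large without these cells (−3.29 in pregnant and −3.02 in virgin glands).

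Hey1 (chromosome 3, 8663359 to 8667256), a hairy-related repressor gene, was found in 6 of 239 cells. These were 2 pregnant basal cells (7.78 and 1.05 FPKM), 1 virgin basal cell (16.4 FPKM) and 3 virgin luminal cells (21.8, 5.82 and 2.89 FPKM), and it was at 0 in all pregnant luminal cells. Hey1 was found in 0 of the 13 basal-gate cells with endothelial markers.

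**Figure D2:**
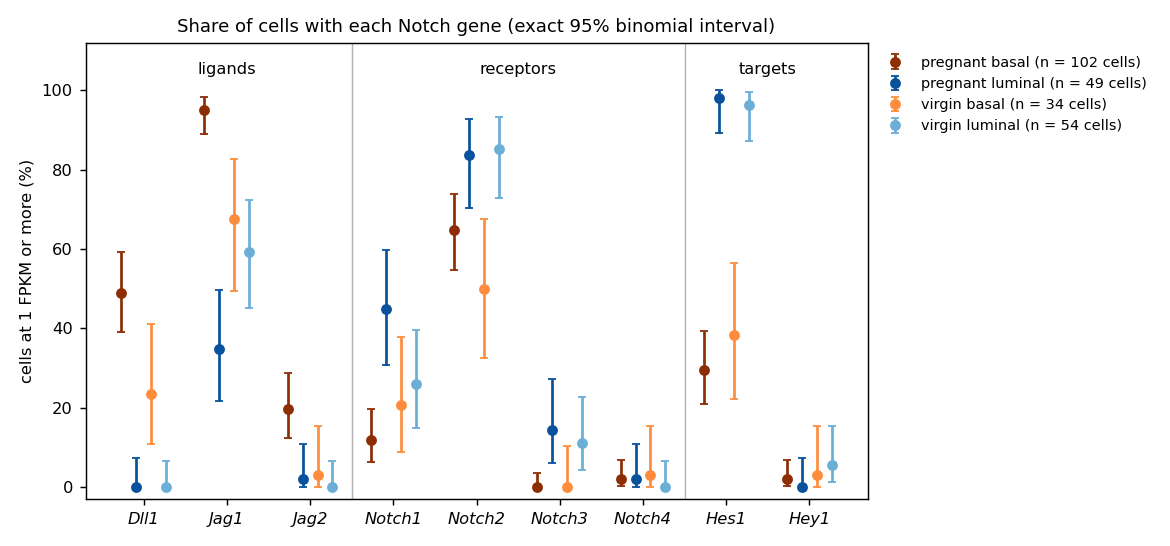
Points give the percentage of cells of each group with each gene at 1 FPKM or more, and bars the exact 95% intervals, which cover counting error only. Jag1 is in 95.1% of pregnant basal and 34.7% of pregnant luminal cells, and Hes1 in 29.4% of pregnant basal and 98% of pregnant luminal cells.

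Between the gates of the pregnant gland, ligand genes were higher in basal cells, and a receptor gene and Hes1 were lower. Pregnant basal minus pregnant luminal cells gave 4.34 for Jag1 and 1.78 for Dll1, with 0.59 for Jag2, and −3.27 for Hes1 and −1.12 for Notch1, with −0.63 for Notch2 and −0.29 for Notch3. Of the 9 genes, 2 were higher and 2 lower by at least 1. Of the 9082 genes measured in this comparison (found at 1 FPKM in 10% or more of either group's cells), 6.00% were higher and 18.6% lower by at least 1 (24.6% in either direction), and the median was −0.33. Notch4 and Hey1 missed that filter. The median of the 9 genes, with no filter, was 0.04, beside 0.00 over all 18850 genes with no filter. Between the quartiles of gene number Notch1 came to −0.89.

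In the virgin gland Jag1 and Dll1 were again higher and Hes1 again lower in basal cells, beside Notch2. Virgin basal minus virgin luminal cells gave 1.13 for Jag1 and 1.12 for Dll1, and −2.40 for Hes1 and −1.28 for Notch2, so that 2 of the 9 were higher and 2 lower by at least 1. Notch1 differed by −0.22. The background was 2.85% higher and 31.4% lower (34.3% either way) of 8857 genes, with a median of −0.59. With no filter the median of the 9 genes was −0.05, beside −0.06 over all genes. Virgin basal cells held fewer genes per cell than virgin luminal cells, and the share of this in the lower values was not tested. Among cells with at least 2000 genes, which leave 12 virgin basal cells, the Notch2 difference was −0.34, that of Dll1 was 0.70 and that of Hes1 was −3.35. Among cells whose marker matched the gate (Krt18 below 10 FPKM in the basal gate, Acta2 below 10 FPKM in the luminal gate), the Jag1 difference was 0.85. Jag2, Notch4 and Hey1 missed the filter here.

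With pregnancy in the luminal gate, 1 of the 9 genes, Jag1, differed by at least 1. Pregnant luminal minus virgin luminal cells gave −1.31 for Jag1, 0.55 for Notch1, −0.25 for Notch2 and 0.08 for Hes1, with the other 5 between −0.17 and 0.07. Dll1, Jag2, Notch4 and Hey1 missed the filter. The background was 5.67% lower and 5.44% higher (11.1% either way) of 9212 genes, with a median of −0.01. With no filter the median of the 9 genes was 0.00, as over all genes. The Hes1 difference of 0.08 lay within the spread over cells, with an SD of 1.22 in pregnant luminal cells and 1.60 in virgin luminal cells, and it was 0.65 between the quartiles of gene number.

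With pregnancy in the basal gate Jag1 was again the only gene of the 9 that differed by at least 1, in the other direction. Pregnant basal minus virgin basal cells gave 1.90 for Jag1, 0.66 for Dll1, 0.59 for Jag2, 0.41 for Notch2, −0.35 for Notch1 and −0.79 for Hes1, and Notch3, Notch4 and Hey1 missed the filter. Here 17.1% of 7233 genes were higher and 0.677% lower by at least 1 (17.8% either way), with a median of 0.35, so many genes were higher in pregnant basal cells. Their median cell also had more fragments and more genes than that of virgin basal cells, and the part of either was not tested. With no filter the median of the 9 genes was 0.03, beside 0.01 over all genes. The excess of Jag1 was −0.02 among cells between the quartiles of gene number, which leave 64 pregnant basal and 6 virgin basal cells, and 0.75 among cells with at least 2000 genes. The direction of Hes1 turned to 0.04 among cells with at least 2000 genes, to 0.57 between the quartiles and to 0.63 in cluster 1 of the clustering described further on, and that of Notch2 to −0.54 among cells with at least 2000 genes, −0.10 between the quartiles and −0.25 in cluster 1. Over the 8 alternatives the Hes1 difference ran from −1.54 to 0.63. Without cells with endothelial markers, Hes1 averaged 0.90 in pregnant basal and 1.12 in virgin basal cells on the log2 scale. Notch1 then averaged 0.24 in pregnant basal and 0.28 in virgin basal cells. The part of the endothelial-marker cells was not tested.

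**Figure D3:**
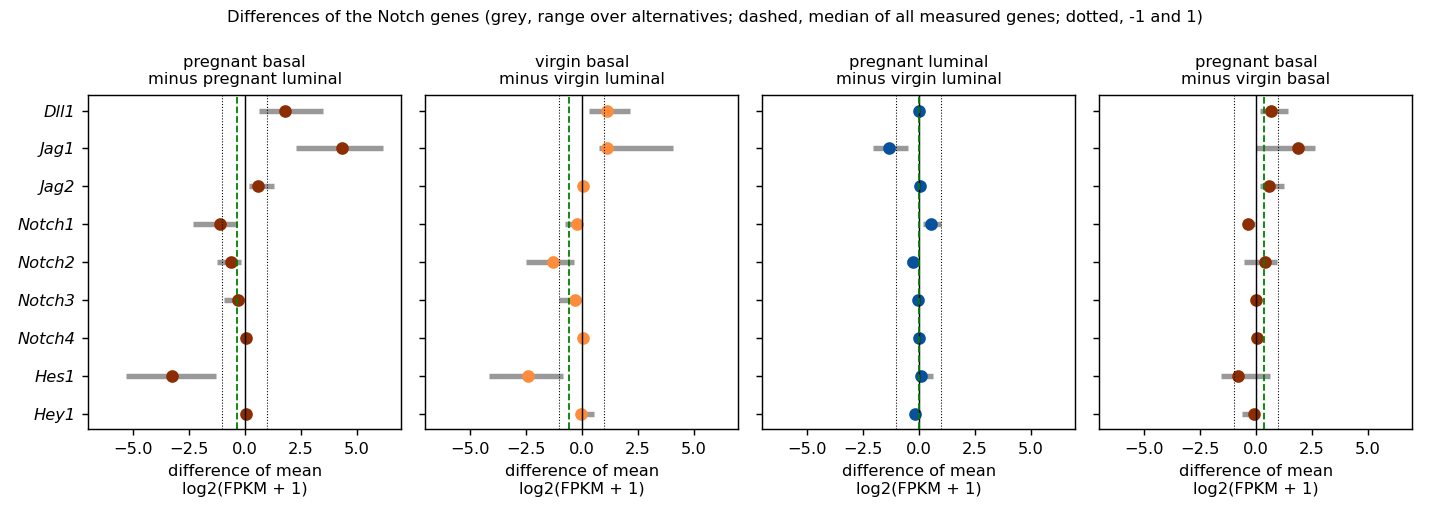
Points give the difference of mean log2(FPKM + 1) for each gene in each comparison, named above its panel, and grey bars the range over the alternative settings; the dashed line is the median of all measured genes and dotted lines mark −1 and 1. Jag1 stands at 4.34, 1.13, −1.31 and 1.90 in the panels read from the left, and Hes1 at −3.27, −2.40, 0.08 and −0.79.

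Ligand and receptor transcripts often lay in the same cell. In pregnant basal cells 72 (70.6%, 60.7 to 79.2%) had a ligand gene and a receptor gene, 29 had a ligand gene alone and 1 a receptor gene alone. In pregnant luminal cells the receptor genes stood alone most often, in 29 of 49 cells (59.2%, 44.2 to 73%), with both kinds in 14 and a ligand gene alone in 3. In virgin basal cells 16 of 34 had both kinds, 9 a ligand gene alone and 5 a receptor gene alone. In virgin luminal cells 29 of 54 had both kinds, 3 a ligand gene alone and 19 a receptor gene alone. The share with both kinds in pregnant basal cells rested mostly on Jag1 with Notch2, found together in 64 cells.

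**Figure D4:**
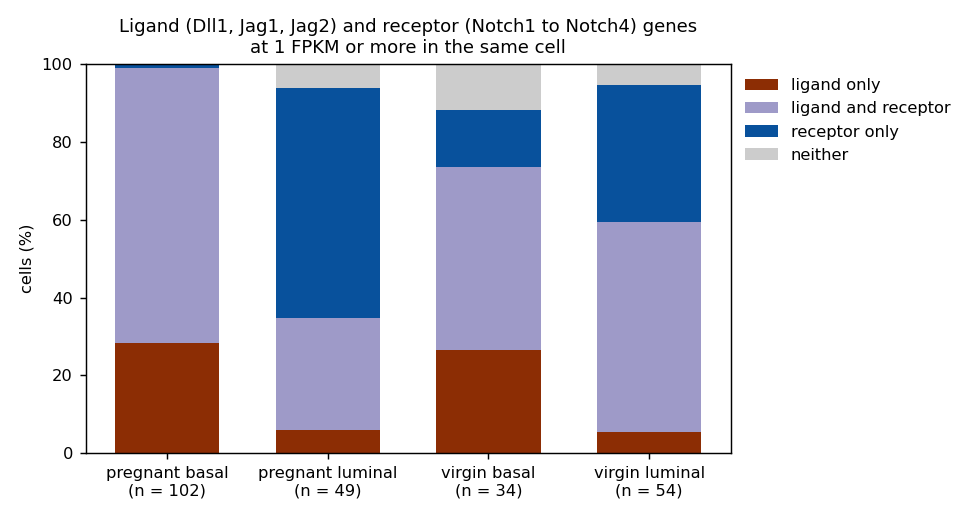
Stacked bars give the percentage of cells of each group with a ligand gene only, a ligand and a receptor gene, a receptor gene only or neither at 1 FPKM or more. Receptor-only cells make up 0.980% of pregnant basal and 59.2% of pregnant luminal cells, and 14.7% of virgin basal cells and 35.2% of virgin luminal cells.

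Jag1 and the target Hes1 were found together in 28 pregnant basal, 16 of 49 pregnant luminal, 9 of 34 virgin basal cells and 32 of 54 virgin luminal cells. Jag1 without Hes1 was found in 69 pregnant basal cells (67.6%), 1 of 49 pregnant luminal cells, 14 of 34 virgin basal cells and 0 of 54 virgin luminal cells. Every one of the 32 virgin luminal cells with Jag1 also had Hes1, but so did 52 of all 54 virgin luminal cells. This overlap therefore shows no link between the genes. A receptor gene was found beside Hes1 in 42 of 49 pregnant luminal and 47 of 54 virgin luminal cells. With or without Hes1, a receptor gene was found in 43 pregnant luminal and 48 virgin luminal cells. Notch1 and Notch2 were found together in 5 pregnant basal, 20 of 49 pregnant luminal, 4 of 34 virgin basal cells and 12 of 54 virgin luminal cells.

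Within the pregnant basal group, cells with and without Dll1 overlapped in Jag1, Hes1 and Notch2. Jag1 averaged 5.47 ± 2.12 on the log2 scale in the 50 cells with Dll1 and 5.69 ± 1.75 in the 52 cells without it. Hes1 was found in 15 of 50 cells with Dll1 and 15 of 52 without it, and Notch2 in 36 of 50 with Dll1 and 30 of 52 without it. Dll1 and Jag1 were found together in 46 pregnant basal and 7 virgin basal cells, and Dll1 without Jag1 in 4 pregnant basal cells and 1 virgin basal cell.

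Cells were also clustered without the 9 genes and without the other pathway genes, into 4 clusters. Cluster 1 was basal-like, with all 9 basal markers at a median of 1 FPKM or more, and held 93 pregnant basal, 4 pregnant luminal and 9 virgin basal cells. Cluster 2 was milk-producing luminal-like, led by Wfdc18 and the casein gene Csn2, also had 6 of 8 luminal progenitor markers at a median of 1 FPKM or more, and held 44 pregnant luminal, 1 virgin basal and 27 virgin luminal cells. Summed over the milk-producing list, the median was 48039 FPKM in all pregnant luminal cells and 989 FPKM in all virgin luminal cells. Cluster 3 stayed unnamed and was led by Fabp4, Sparc and Rbp7. At a median of 1 FPKM or more it had 5 of 9 basal markers (Krt14, Krt17, Acta2, Myh11 and Cnn1) and 0 of 11 endothelial markers. A median can miss markers that a minority of its cells carry. It had a median of 1691 genes per cell, and held 9 pregnant basal, 1 pregnant luminal, 24 virgin basal and 1 virgin luminal cell. Cluster 4 was hormone-sensing luminal-like, with all 8 of its markers, and held 26 virgin luminal cells.

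Within virgin luminal cells, Jag1 differed between these clusters. It reached 1 FPKM in 22 of 26 virgin luminal cells of cluster 4 (84.6%, 65.1 to 95.6%) and 10 of 27 of cluster 2 (37.0%, 19.4 to 57.6%), with a mean of 3.82 ± 1.99 on the log2 scale in cluster 4 and 1.41 ± 1.98 in cluster 2. The 44 pregnant luminal cells of cluster 2 had Jag1 at 0.94 ± 1.52, so pregnant minus virgin within that cluster was −0.47, against −1.31 over all luminal cells. The highest pregnant luminal Jag1 cell lay in the basal-like cluster.

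Hes1 was found in nearly all cells of both luminal-like clusters. It was found in 43 of 44 pregnant luminal cells of cluster 2, in 26 of 27 virgin luminal cells of cluster 2 and in 26 of 26 of cluster 4. Notch2 averaged 2.49 ± 1.18 in pregnant luminal cells of cluster 2, 3.02 ± 1.27 in virgin luminal cells of cluster 2 and 2.22 ± 1.24 in cluster 4. Notch1 was found in 22 of 44 pregnant luminal cells of cluster 2, 5 of 27 virgin luminal cells of cluster 2 and 9 of 26 cells of cluster 4. Notch3 was found in 7 of 44 pregnant luminal cells of cluster 2, 2 of 27 virgin luminal cells of cluster 2 and 4 of 26 of cluster 4.

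In the basal gate, the virgin cells were mostly those of cluster 3. Hes1 was found in 27 of 93 pregnant basal and 1 of 9 virgin basal cells of cluster 1, and in 3 of 9 pregnant basal and 11 of 24 virgin basal cells of cluster 3. Over all virgin basal cells, leaving out those with endothelial markers took Hes1 from 13 of 34 to 8 of 26 cells. The part of endothelial-marker cells in the Hes1 of cluster 3 was not tested. Jag1 averaged 5.70 ± 1.84 in pregnant basal and 5.25 ± 2.74 in virgin basal cells of cluster 1, a difference of 0.46. Virgin basal cells of cluster 1 minus virgin luminal cells of clusters 2 and 4 gave 2.65 for Jag1, −3.93 for Hes1, −0.53 for Notch2 and 0.34 for Dll1, with cells chosen after seeing the data. Dll1 was found in 47 of 93 pregnant basal and 1 of 9 virgin basal cells of cluster 1, a difference of 1.43 on the log2 scale.

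**Figure D5:**
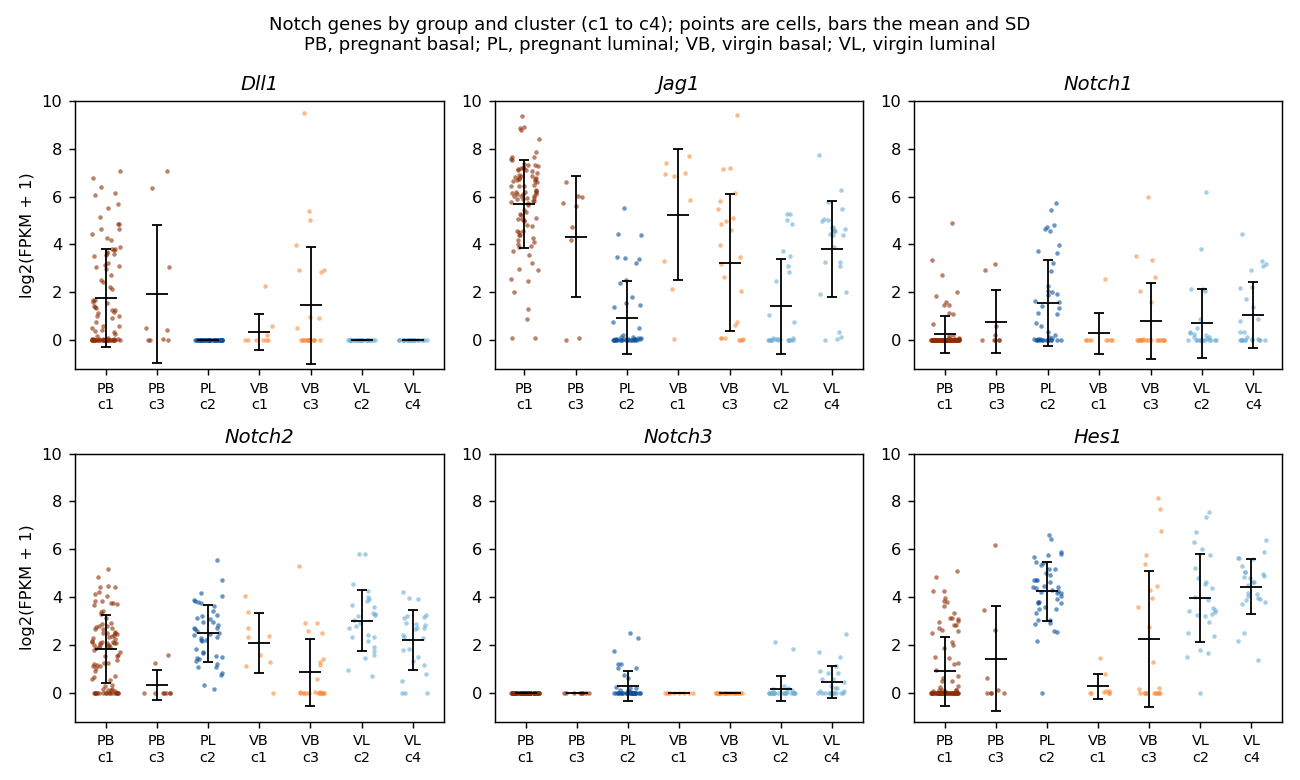
Panels plot log2(FPKM + 1) of 6 of the genes by group and cluster (c1 to c4), with points for cells and bars for the mean and SD over cells; group and cluster pairs of fewer than 9 cells are not drawn. Jag1 averages 3.82 in virgin luminal cells of cluster 4 and 1.41 in those of cluster 2.

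Other genes of the pathway were taken from 6 lists holding 60 genes, 59 of them in the table. In the processing list, which holds the proteases that cut the receptor, 1 of 10 genes was lower by at least 1 in pregnant basal than pregnant luminal cells (Psenen, a gamma-secretase subunit, −2.77), and 4 were lower in virgin basal than virgin luminal cells (among them Adam10 −4.77, Psenen −4.06 and Ncstn −2.09). Adam10, which makes the first cut after ligand binding, averaged 16.4 FPKM in pregnant basal, 21 FPKM in pregnant luminal, 11.3 FPKM in virgin basal cells and 93.6 FPKM in the virgin luminal group. Pregnant luminal cells had 3 of the 10 lower than virgin luminal cells (Adam10 −2.23, Ncstn −1.58 and Furin −1.01), and pregnant basal cells had 2 higher than virgin basal cells (Adam10 1.59 and Psenen 1.5). Of the 10 genes, 8, 8, 8 and 7 passed the filter in these comparisons. In the first, 1 of 8 was lower, beside 18.6% of all genes measured. In the second 4 of 8 were lower, beside 31.4%, and in the third 3 of 8, beside 5.67%. In the last 2 of 7 were higher, beside 17.1%. These shares were not tested. With no filter the list's median was −0.44, −0.92, −0.34 and 0.20 in this order, beside 0.00, −0.06, 0.00 and 0.01 over all genes.

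In the nuclear complex and corepressor list, of 11 genes, Hdac1 (a histone deacetylase, 1.33) and Maml2 (a Mastermind coactivator, 1.11) were higher in pregnant basal than pregnant luminal cells. Hdac1 (−1.71) and Kat2b (an acetyltransferase, −1.12) were lower in virgin basal than virgin luminal cells. Pregnant luminal minus virgin luminal cells gave 1.22 for Maml2 and −2.32 for Hdac1, and pregnant basal minus virgin basal cells gave 1.99 for Maml2 and 1.00 for Ctbp2. These counts stand beside 6.00% of all measured genes higher in the first comparison, 31.4% lower in the second, 5.44% higher and 5.67% lower in the third and 17.1% higher in the last. With no filter the list's median in the 4 comparisons was 0.08, −0.34, −0.14 and 0.28. Rbpj itself was found in 63 pregnant basal, 39 of 49 pregnant luminal, 17 of 34 virgin basal cells and 32 of 54 virgin luminal cells.

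Among the other target genes, 15 in the list, Id4 (1.23) and Sox9 (1.21) were higher and Gata3 (−1.63) and Myc (−1.05) lower in pregnant basal than pregnant luminal cells. In virgin basal minus virgin luminal cells 4 were lower, namely Gata3 (−3.53), Ccnd1 (−3.39), Sox9 (−1.88) and Id2 (−1.40), and 0 higher. Myc (3.13) and Ccnd1 (1.20) were higher and Id3 (−1.60) and Sox9 (−1.29) lower in pregnant luminal than virgin luminal cells. Ccnd1 (3.69), Sox9 (1.80), Gata3 (1.63) and Myc (1.14) were higher in pregnant basal than virgin basal cells. Of the 15 genes, 7, 7, 6 and 8 passed the filter in these comparisons. Over all measured genes 6.00% were higher and 18.6% lower in the first comparison, 2.85% and 31.4% in the second, 5.44% and 5.67% in the third and 17.1% and 0.677% in the last, and the 4 lower and 0 higher in virgin basal cells lean as all genes do. With no filter the list's median in the 4 comparisons was 0.00, −0.02, −0.01 and 0.05. These genes are known to answer to many signals besides Notch, as background.

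The remaining lists held few differences. Of the glycosylation list, 0 of 5 genes differed by at least 1 in any comparison, and Lfng and Mfng, which modify the receptors, were each found in 1 cell. Of the 13 endocytosis and turnover genes, 7, 8, 7 and 6 passed the filter. Dtx4 was lower in virgin basal than virgin luminal cells (−1.04), as were 31.4% of all measured genes. Fbxw7 was higher in pregnant luminal than virgin luminal cells (1.07), as were 5.44% of all measured genes. Of the 5 other ligand genes, 1, 0, 0 and 1 passed the filter, and 0 differed by at least 1. With so few genes measured, the counts of 0 for ligand and glycosylation genes say little. Dlk2, a non-canonical ligand gene, was found in 21 pregnant basal, 0 of 49 pregnant luminal, 1 of 34 virgin basal cells and 0 of 54 virgin luminal cells.

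Likeness in level was measured across all 239 cells. Over 7926 genes, Pearson's r of log2(FPKM + 1) with Dll1 was highest for Acta2 (0.45), Myh11 (0.44) and Rbpms (0.44), and with Jag1 for Pdpn (0.64), Perp (0.62) and Mylk (0.62). With Hes1 it was highest for Krt19, Cldn3 and Tmprss13 (0.60 each), and with Notch3 for Lypla2 (0.45), Htatip2 (0.41) and Cldn3 (0.39). With Notch1 it was highest for Hes1 (0.35), at 0.44 within the 49 pregnant luminal cells. The same pair had −0.04 within virgin luminal, 0.24 within pregnant basal and 0.34 within virgin basal cells. With Notch2 it was highest for Atp6v1d (0.36), Cycs (0.36) and Cstb (0.34), and with Jag2 for Kcnip3 (0.40), Ehd2 (0.34) and Fmod (0.34). Acta2, Myh11 and Mylk are smooth muscle genes, and Krt19 and Cldn3 are known in luminal cells. Within the group with the highest level of the gene, most of these were weaker: 0.02, 0.05 and 0.11 for the Dll1 genes in pregnant basal cells, and −0.02, 0.16 and −0.04 for the Hes1 genes in pregnant luminal cells. The genes of a cell share its depth and library. Jag1 followed the number of genes per cell at r = 0.49 among virgin basal cells and 0.43 among virgin luminal cells. It did not among pregnant basal (−0.01) and pregnant luminal cells (−0.03).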

How the data were processed

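Single cells were sorted, captured on C1 chips and made into libraries with the SMARTer and Nextera XT kits, per the labels' protocols, and capture sites were inspected for doublets; no doublet caller was run. The authors deposited 1 table of FPKM values, a unit inferred from the tools and the values. Trimmomatic 0.35, TopHat2 2.0.13 and Cufflinks 2.2.1 with mm10 (GRCm38) were used, per the submitters' processing notes; the sources used here do not give the annotation. From the table, log2(FPKM + 1), differences of group means, shares of cells at 1 FPKM or more with exact Clopper-Pearson 95% intervals, and Ward clusters of cells were computed in Python 3.11.15 with numpy 2.4.6, pandas 2.3.3, scipy 1.17.1 and scikit-learn 1.9.0. Each group is 1 sample, so no test was run. The difference script was tested on simulated data. Depth was read from steps of low values: 99.9% of 519546 values below 20 steps were whole within 0.05 of a step. No cell was left out of the main values, and 0 columns lacked a sample. All 9 genes are given; other genes named are list members differing by at least 1 (at most 4 per list and comparison), the 3 genes with the highest r with a member, and markers that a result turns on; 1 list member is not reported here by name. Genes given by counts of cells alone, such as Rbpj and Dlk2, were chosen after their values were seen. The members and the lists were chosen with earlier results of these data known. Sequences are from RefSeq (GRCm38.p6). Alternatives were pseudocounts of 0.1 and 10, upper-quartile rescaling, 4 other choices of cells, and cluster-matched cells, which were added after seeing the data.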

Additional observations from a re-analysis of the deposited data

Results flagged for a closer look

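Jag1 differed with pregnancy in opposite directions in the gates. Pregnant minus virgin was 1.90 on the log2 scale in the basal gate and −1.31 in the luminal gate. Each group is 1 sample, so this difference between the gates was not tested. In the basal gate the value was 0.46 among cells of the basal-like cluster, and −0.02 among cells between the quartiles of gene number. In the luminal gate it was −0.47 among cells of cluster 2, the milk-producing luminal-like one, and −0.57 between the quartiles of gene number. The part of depth and of cluster make-up in it was not tested.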

How the results depend on the processing

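No paired analysis was possible because the result comes from no test and the cell numbers only name cells. Of the 10 differences of at least 1, taken over 8 alternatives (80 values), 60 stayed on the same side of 1, 19 did not, and 1 reversed: Jag1 in pregnant basal minus virgin basal cells, 1.90, was −0.0150 between the quartiles of gene number. Among smaller differences of that comparison, Hes1 and Notch2 also turned, as given with it. The number of the 9 genes that differed by at least 1 moved as follows; the causes were not tested. For pregnant basal minus pregnant luminal cells it was 4, and 2 with a pseudocount of 10, 6 with a pseudocount of 0.1 (Jag2 and Notch2 added) and 3 between the quartiles (Notch1 lost). For virgin basal minus virgin luminal cells it was 4, and 0 with a pseudocount of 10, 2 among cells with at least 2000 genes, 2 between the quartiles and 2 with cluster-matched cells. For pregnant luminal minus virgin luminal cells it was 1, and 0 with a pseudocount of 10, 0 between the quartiles and 0 within cluster 2. For pregnant basal minus virgin basal cells it was 1, and 4 with a pseudocount of 0.1, 2 with upper-quartile rescaling, 0 among cells with at least 2000 genes, 0 between the quartiles and 2 among cells whose marker matched the gate (Krt18 below 10 FPKM). Within cluster 1 it was also 1, but the gene was Dll1 (1.43), with Jag1 at 0.46. Without the filter on low values the share of all genes differing by at least 1 was 14.1%, 19.6%, 6.46% and 8.37% in these comparisons, in that order. Few virgin basal cells and their low gene numbers limit what can be read from that group.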
